A study of Mus musculus with 12 samples.

Results

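The integrated stress response and amino acid supply genes described here are 39 mouse genes of the ATF4 pathway and of tRNA charging, found by symbol among the 31114 genes of liver RNA from 12 mice. They fall into 5 roles: 7 transcription regulators, 9 feedback and effector genes, 7 enzymes of amino acid synthesis, serine and one-carbon metabolism, 4 amino acid transporters and 12 cytosolic aminoacyl-tRNA synthetases. All 12 animals were hFIX-R29X mice, a hemophilia B strain that lacks mouse F9 and carries a minigene of human factor IX interrupted by a stop codon. Because the minigene has a human transthyretin promoter, hepatocytes are its main site of expression. Treatment began at an age of 8 to 14 weeks. Each animal was given 6 doses at intervals of 5 days, and livers were taken 48 h after the last one. Buffer alone went to 4 animals (DPBS), while 4 received Control-GalNAc-ASO at 15 mg/kg, a scrambled antisense oligonucleotide (ASO), and 4 received Upf3b-GalNAc-ASO at 10 mg/kg, which targets the nonsense-mediated decay factor Upf3b. The ASOs carried N-acetyl galactosamine (GalNAc), which favours uptake by hepatocytes. In each group replicates 1 and 2 were females and replicates 3 and 4 were males, and values below are listed in that order. The groups are called DPBS, control ASO and Upf3b-ASO. The comparison with the control ASO asks what Upf3b depletion did to these genes beyond the effect of an oligonucleotide, and the comparison with DPBS asks what the active ASO did relative to buffer.

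The integrated stress response begins when a kinase phosphorylates the translation factor eIF2, which lowers general protein synthesis and favours translation of the ATF4 mRNA. ATF4 is a transcription factor that binds promoters together with C/EBP proteins and raises genes for amino acid synthesis, amino acid uptake and tRNA charging, among them Asns, Psat1, Slc7a11 and many cytosolic tRNA synthetases. The response also raises Ddit3 (CHOP), Trib3 and Ppp1r15a, and the last of these encodes a phosphatase subunit that restores eIF2. Several mRNAs of the response, including Atf4 and Ddit3, carry upstream open reading frames and are known from cell studies as targets of nonsense-mediated decay.

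Libraries held 13277892 to 20387682 estimated counts, and the 4 Upf3b-ASO libraries, at 13277892 to 17054313, were smaller than the other 8. Levels are given as CPM, counts scaled to library size. Upf3b itself spanned 9.37 to 13.5 CPM after DPBS, 7.93 to 12 CPM after the control ASO and 0.65 to 1.58 CPM after the Upf3b-ASO (-3.30 ± 0.27, adjusted p = 7.4e-05 against the control ASO on the log2 scale). All 10 hepatocyte markers reached 10 counts in at least 4 livers, and against the control ASO 1 of them, Serpina1a, was called lower. Of the markers of other cells, none of 7 endothelial, 5 erythroid, 9 Kupffer cell and 1 cholangiocyte markers tested was called in that comparison, 1 of 5 stellate cell markers, Rgs5, was lower, and no neutrophil or lymphocyte marker was abundant enough to test. When control ASO replicate 3, a liver described next, was left out, 2 of the 7 endothelial markers were also lower against the control ASO, Stab2 (-0.36 ± 0.08, adjusted p = 0.0078) and Eng (-0.39 ± 0.07, adjusted p = 0.002). Against DPBS without that liver, the endothelial markers Stab2, Kdr and Eng and the hepatocyte markers Alb, Apoa1 and Serpina1a were lower, Lyve1 and Asgr2 were higher, and no Kupffer cell, stellate cell, cholangiocyte or erythroid marker was called. Over all genes tested, 10.3% were called against the control ASO with all livers. Without control ASO replicate 3 the shares were 24.5% against the control ASO and 28.7% against DPBS. The part of the markers in the results below was not tested. Summed erythroid markers reached 3016 CPM in a control ASO liver and 212 to 549.5 CPM in the DPBS and Upf3b-ASO livers. Control ASO replicate 3, a male, stood apart from all other livers. In that liver 12 of 13 immediate-early genes and 14 of 20 acute-phase genes were more than 4-fold above the median of the other 3 control ASO livers, and the summed acute-phase genes were at 101984 CPM against 14236 to 19200.3 CPM in those 3. Its summed Kupffer cell markers, at 453 CPM, lay within the 365 to 896 CPM of the other 3. Its summed neutrophil markers, at 25.9 CPM, lay within their 6.84 to 54.6 CPM. For both sums the highest value was that of control ASO replicate 1. Neutrophil sums were 7.1 to 8.76 CPM after DPBS and 6.66 to 8.01 CPM after the Upf3b-ASO, below control ASO replicate 3. Because control ASO replicate 3 stood apart, the tests of Upf3b-ASO below were made both with all 12 livers and without it. Control ASO replicate 1 stayed in the fits without replicate 3. In bulk liver RNA, fewer cells of a type and less RNA per cell cannot be told apart.

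Per length and library, in TPM (transcript abundance scaled to length and library), Cebpb was the most abundant of the 39 genes in DPBS livers at 166 ± 19.9 TPM (mean ± SD, n = 4), followed by Aars, the alanine tRNA synthetase, at 101 ± 15.9 TPM. Atf5, Shmt2, Tars, Atf4 and Eprs came next at 69.3 ± 15.6, 64.9 ± 5.21, 64.6 ± 13.5, 60.5 ± 7.66 and 59.6 ± 5.51 TPM, and these 5 did not differ beyond their spread. The least abundant were Phgdh, Slc7a1 and Psat1 at 0.302 ± 0.255, 0.412 ± 0.137 and 0.694 ± 0.179 TPM. Liver therefore held all 12 synthetases and most transcription regulators at readily counted levels, whereas the serine synthesis genes Phgdh and Psat1 and the arginine and lysine transporter Slc7a1 were close to the limit of counting, with at most 7, 21 and 38 counts in any liver other than control ASO replicate 3. A filter of 5 TPM in at least 4 livers left 8846 genes for testing, among them 23 of the 39: 5 transcription regulators, 3 effectors, 2 enzymes, the transporter Slc3a2 and all 12 synthetases. A second filter of 10 counts in at least 4 livers left 14058 genes and 38 of the 39. Phgdh did not pass it.

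The promoters of these genes were examined because ATF4 and C/EBP proteins bind a composite element with the letters TGATGNAA. RefSeq windows of 250 bases before to 50 bases after a gene's start (GRCm38.p6) were at hand for 33 of the 39 genes. No window was at hand for Ppp1r15b, Slc7a5, Cars, Lars, Nars and Wars. The element occurred on either strand in the windows of 13 of the 33 genes (39.4%) and in 4.51% of the 27025 genes with a window. The 13 genes were Atf3 and Nupr1 among the regulators, Trib3, Chac1 and Fgf21 among the effectors, Asns and Pck2 among the enzymes, the cystine transporter Slc7a11, and the synthetases Aars, Gars, Iars, Tars and Yars. The cyclic AMP response element TGACGTCA occurred only in the window of Ppp1r15a, 1 of 33 genes, against 2.03% of all genes. Windows are printed 5′ to 3′ for Atf3 and Chac1, which were far higher in control ASO replicate 3, and for Asns. Asns was highest in that liver, at 6.2 CPM, but other males reached 4.29 CPM. Cebpb, Ddit4, Ppp1r15a, Gadd45a, Gadd45b, Psat1 and Slc7a1 were also more than 4-fold above the other control ASO livers there. Their windows did not hold TGATGNAA on either strand. Windows follow for Gars and Tars, which were called higher in Upf3b-ASO against the remaining control ASO livers, although single livers overlapped for Tars. The last is for Atf5, which had the largest called change with all 12 livers. Capitals mark TGATGNAA or its reverse complement.
Atf3, chr1:191183284-191183583, minus strand: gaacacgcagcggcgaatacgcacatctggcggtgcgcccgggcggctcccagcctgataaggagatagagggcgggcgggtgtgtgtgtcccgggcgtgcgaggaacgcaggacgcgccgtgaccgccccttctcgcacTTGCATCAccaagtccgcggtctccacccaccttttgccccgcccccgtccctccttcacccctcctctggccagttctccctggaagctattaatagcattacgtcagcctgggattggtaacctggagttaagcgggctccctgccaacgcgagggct
Chac1, chr2:119350992-119351291, plus strand: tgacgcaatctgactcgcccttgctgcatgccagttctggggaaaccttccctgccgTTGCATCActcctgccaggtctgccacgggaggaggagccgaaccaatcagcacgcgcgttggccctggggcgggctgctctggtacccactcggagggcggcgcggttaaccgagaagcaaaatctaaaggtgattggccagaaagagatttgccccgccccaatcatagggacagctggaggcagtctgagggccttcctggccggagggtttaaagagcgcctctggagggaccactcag
Asns, chr6:7693160-7693459, minus strand: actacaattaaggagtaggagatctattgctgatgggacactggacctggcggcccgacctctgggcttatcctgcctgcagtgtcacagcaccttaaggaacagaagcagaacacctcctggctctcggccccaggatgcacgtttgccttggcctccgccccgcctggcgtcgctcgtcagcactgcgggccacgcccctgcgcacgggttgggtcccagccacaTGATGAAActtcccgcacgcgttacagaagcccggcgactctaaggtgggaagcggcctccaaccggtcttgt
Gars, chr6:55037751-55038050, plus strand: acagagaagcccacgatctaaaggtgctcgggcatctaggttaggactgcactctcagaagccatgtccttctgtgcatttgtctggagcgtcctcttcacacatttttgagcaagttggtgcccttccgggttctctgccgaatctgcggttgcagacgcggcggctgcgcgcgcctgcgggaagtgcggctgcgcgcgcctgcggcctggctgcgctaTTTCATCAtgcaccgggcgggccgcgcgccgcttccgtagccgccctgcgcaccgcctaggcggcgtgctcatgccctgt
Tars, chr15:11399609-11399908, minus strand: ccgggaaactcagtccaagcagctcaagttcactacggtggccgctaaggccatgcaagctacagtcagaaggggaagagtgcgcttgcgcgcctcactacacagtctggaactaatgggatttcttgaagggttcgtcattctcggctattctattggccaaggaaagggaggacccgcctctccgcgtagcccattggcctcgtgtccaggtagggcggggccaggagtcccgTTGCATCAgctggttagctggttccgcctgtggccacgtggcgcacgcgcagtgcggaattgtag
Atf5, chr7:44816609-44816908, minus strand: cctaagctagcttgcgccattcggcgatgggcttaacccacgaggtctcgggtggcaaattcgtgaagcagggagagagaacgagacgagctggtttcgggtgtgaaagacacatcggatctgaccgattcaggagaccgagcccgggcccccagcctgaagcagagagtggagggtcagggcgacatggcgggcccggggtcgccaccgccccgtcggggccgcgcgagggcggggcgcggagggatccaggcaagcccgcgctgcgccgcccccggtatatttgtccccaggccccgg
The element began 110 bases before the start site in Atf3, 193 before it in Chac1, 23 before it in Asns, 30 before it in Gars and 15 before it in Tars. Neither of the 2 Atf5 windows held these letters, which says nothing about factor binding outside the window. In Aars the window held the element on the minus strand at 2 places, starting 112 bases before and 9 bases after the start site. Matches are letters in a window and were not tested as binding sites.

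In control ASO replicate 3, 11 of the 38 countable genes were more than 4-fold above the median of the other 3 control ASO livers and none was more than 4-fold below it, against 3.93% and 3.26% of all 14058 genes. These differences concern 1 liver and carry no test. The 11 genes were Atf3, Cebpb, Ddit4, Chac1, Ppp1r15a, Gadd45a, Gadd45b, Fgf21, Asns, Psat1 and Slc7a1. That liver lay above all other 11 livers in 22 of the 39 genes, below all of them in 9 and within their range in 8, while over all 14058 genes it lay above them in 30.5% and below them in 28.9%.

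Among transcription regulators, Atf3, a stress-inducible repressor and activator, was at 1.56, 1.91, 1.13 and 1.64 CPM after DPBS, 2.19, 2.88, 348 and 2.39 CPM after the control ASO and 5.38, 2.66, 1.87 and 1.06 CPM after the Upf3b-ASO. Replicate 3 of the control ASO was 146 times the median of the other 3 control ASO livers, and the other 11 livers spanned 1.06 to 5.38 CPM. The effector Gadd45b, a growth arrest and DNA damage gene, had 1.25, 1.45, 0.592 and 1.06 CPM after DPBS, 1.69, 1.81, 211 and 1.49 CPM after the control ASO and 3.66, 1.68, 0.933 and 0.53 CPM after the Upf3b-ASO. Its relative Gadd45a showed 6.56, 6.42, 4.03 and 5.25 CPM after DPBS, 3.55, 7.81, 345 and 6.69 CPM after the control ASO and 6.88, 4.13, 8.79 and 4.83 CPM after the Upf3b-ASO. With that liver set aside all 3 genes were low. Upf3b-ASO livers overlapped both other groups for each of them, while the control ASO livers lay above all DPBS livers for Atf3 and Gadd45b.

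Ddit4, an inhibitor of mTORC1 signalling, was at 5.26, 5.27, 2.49 and 7.42 CPM after DPBS, 9.46, 4.75, 159 and 5.38 CPM after the control ASO and 4.87, 5.75, 5.06 and 4.37 CPM after the Upf3b-ASO. The glutathione-degrading enzyme gene Chac1 gave 4.27, 4.41, 2.73 and 1.27 CPM after DPBS, 4.32, 4.02, 87.1 and 6.99 CPM after the control ASO and 2.44, 1.47, 3.06 and 4.24 CPM after the Upf3b-ASO. Ppp1r15a, the inducible eIF2 phosphatase subunit, gave 8.11, 7.8, 9.66 and 8.01 CPM after DPBS, 7.21, 4.99, 69.5 and 7.91 CPM after the control ASO and 7.58, 9.59, 6.68 and 9.27 CPM after the Upf3b-ASO. Each of the 3 was 9.63 to 29.5 times the control ASO median in replicate 3 and overlapped between groups otherwise.

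The hepatic hormone gene Fgf21 was at 2.34, 1.4, 1.36 and 3.55 CPM after DPBS, 2.24, 0.566, 10.1 and 0.777 CPM after the control ASO and 2.08, 1.52, 1.87 and 1.59 CPM after the Upf3b-ASO. Psat1, a serine synthesis enzyme, was at 0.602 to 1.11 CPM after DPBS, 0.929, 0.283, 1.8 and 0.239 CPM after the control ASO and 0.932, 0.651, 0.533 and 0.728 CPM after the Upf3b-ASO. Slc7a1 was at 1.31, 1.16, 1.6 and 1.23 CPM after DPBS, 1.89, 1.25, 5.89 and 0.948 CPM after the control ASO and 1.8, 2.09, 1.44 and 0.909 CPM after the Upf3b-ASO. All 3 were highest in control ASO replicate 3, at 13, 6.37 and 4.69 times the median of the other control ASO livers, from low counts. Asns, the asparagine synthetase gene, was 5.97 times that median there, and males were above females for Asns in all groups. The other control ASO livers were both females and replicate 4, a male at 2.03 CPM.

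Below the 4-fold mark, the next highest countable genes in that liver were Sesn2 at 2.87, Atf4 at 2.45, Trib3 at 2.44, Ddit3 at 2.43, Slc3a2 at 2.27 and Mthfd2 at 2.08 times the median. In the other direction Atf5, Cebpg and Pck2 were at 0.499, 0.446 and 0.289 times it. The 12 synthetases stayed between 0.673 (Cars) and 1.36 (Eprs) times it. In that liver 5 of the 12 synthetases lay below all other 11 livers, 2 lay above them and 5 lay within their range. Over all 14058 genes it lay below them in 28.9% and above them in 30.5%.

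**Figure D1:**
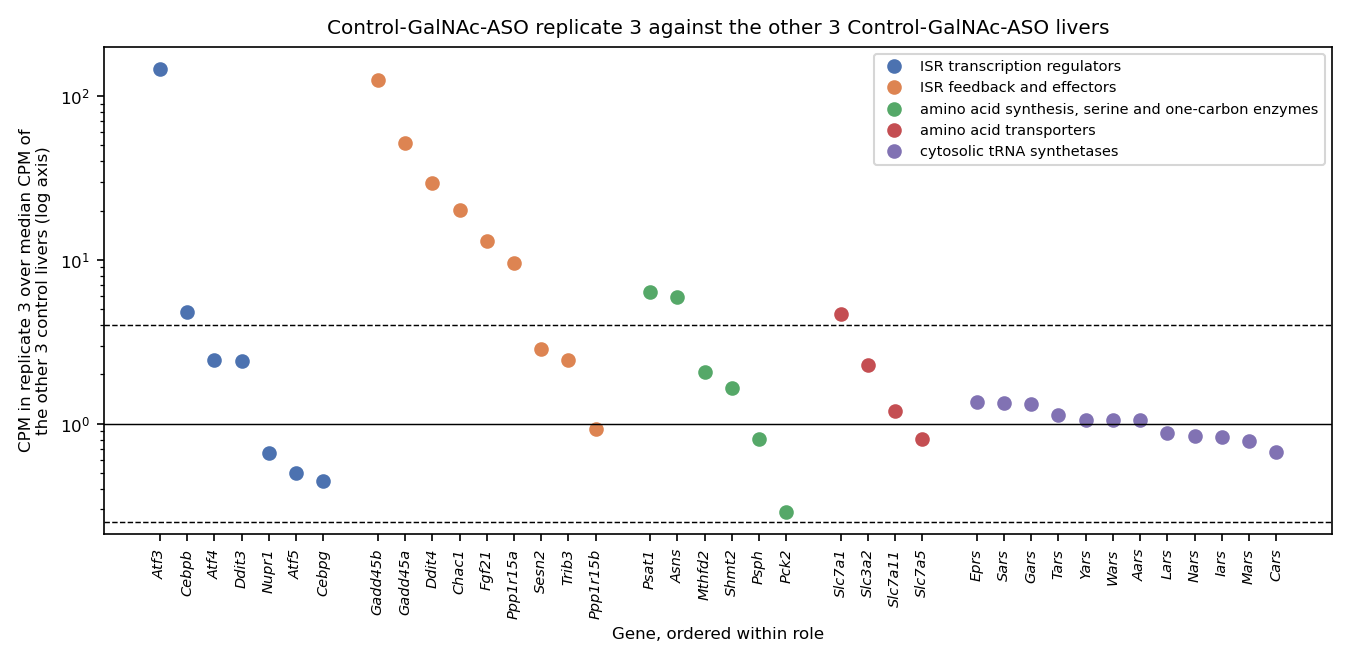
CPM in control ASO replicate 3 divided by the median CPM of the other 3 control ASO livers (log axis) for the 38 countable genes, coloured by role, with dashed lines at 4-fold above and below. The 11 genes above the upper line reach 146 (Atf3) and the synthetases stay between 0.673 and 1.36.

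**Figure D2:**
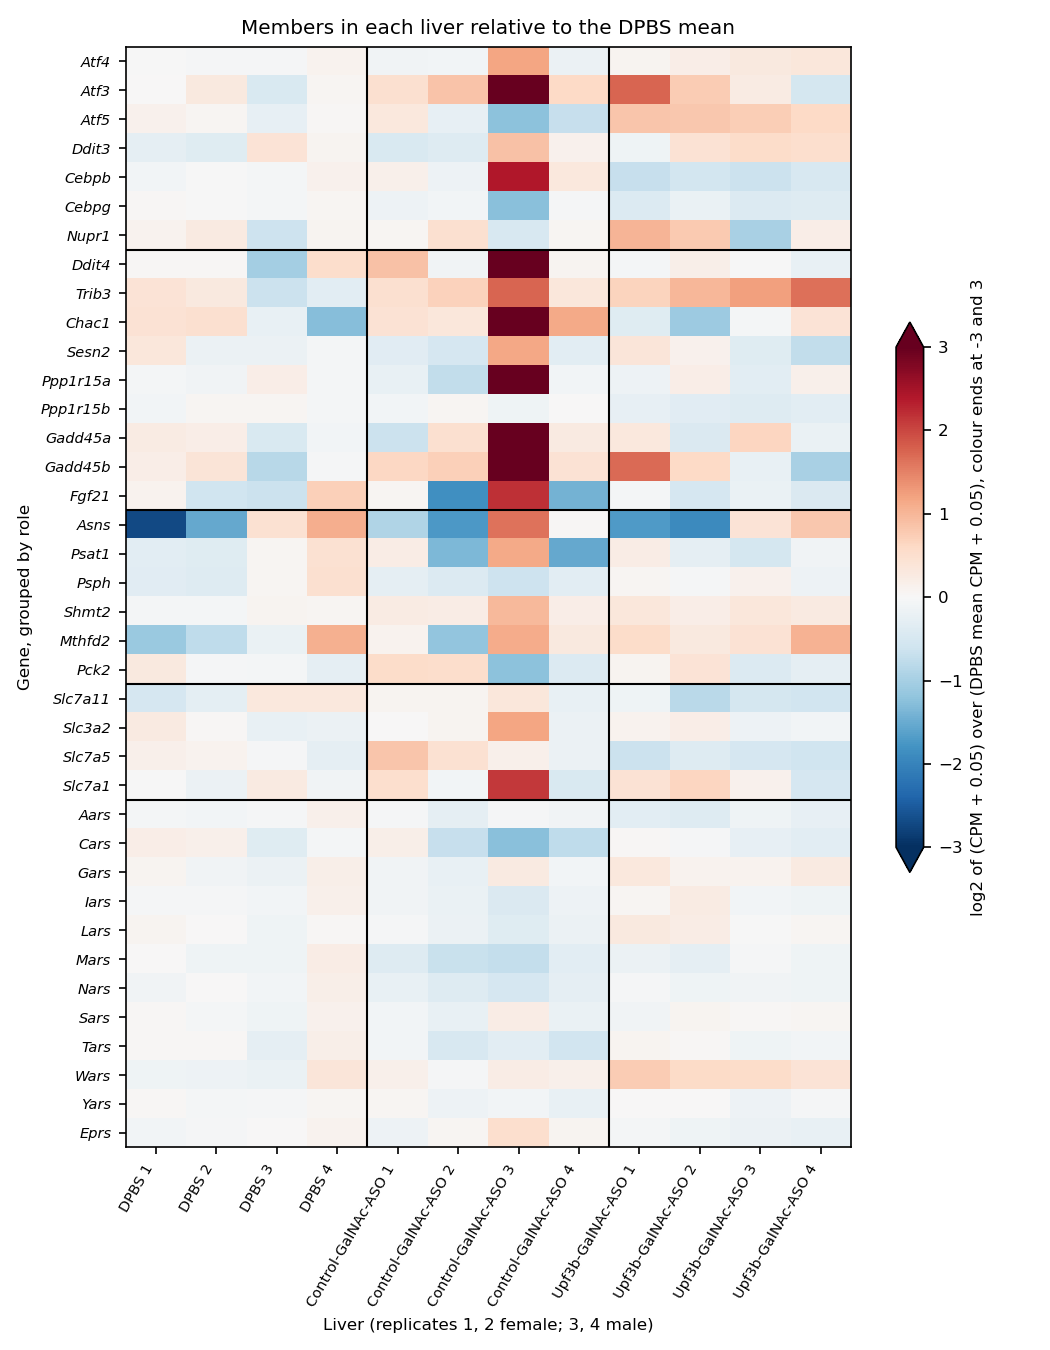
Log2 of CPM over the DPBS mean (both with 0.05 CPM added; colour ends at -3 and 3) for the 38 countable genes in each of the 12 livers, grouped by role from transcription regulators at the top to synthetases at the bottom. The column of control ASO replicate 3 holds the strongest colours in the upper roles, and Atf5 and Wars are higher, and Cebpb and Slc7a5 lower, across the 4 Upf3b-ASO columns.

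With all 12 livers, Upf3b-ASO against the control ASO called 3 of the 23 tested genes at an adjusted p under 0.05, Atf5 and Lars higher and Ppp1r15b lower, beside 10.3% of all 8846 genes (4.34% higher and 5.95% lower). Without control ASO replicate 3 it called 10 of 23, with Atf4, Atf5, Ddit3, Gars, Lars, Tars and Wars higher and Cebpb, Cebpg and Ppp1r15b lower, beside 24.5% of all genes (11% higher and 13.5% lower). The median log2 fold change of the 23 was 0.08 with all livers and 0.20 without that liver, against -0.02 and 0.01 over all genes tested. Against DPBS, 3 of 23 were called with all livers, Atf5 and Wars higher and Ppp1r15b lower, beside 8.93% of all genes (3.57% higher and 5.36% lower). Without control ASO replicate 3 the count against DPBS was 8 of 23, with Atf4, Atf5, Shmt2 and Wars higher and Cebpb, Cebpg, Ppp1r15b and Aars lower, beside 28.7% of all genes (13.7% higher and 15.0% lower). That liver is in neither of the groups compared there, and enters through the shared estimate of spread, the shared sex term and the library scaling. The comparisons with the control ASO and with DPBS share the 4 Upf3b-ASO livers.

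Atf5 (chr7:44812256-44816658, minus strand, GRCm38), an ATF4-related activator translated under stress and abundant in liver, was at 107, 102, 81.8 and 100.5 CPM after DPBS, 122, 83.0, 41.4 and 60.3 CPM after the control ASO and 173, 171, 164 and 148 CPM after the Upf3b-ASO. Every Upf3b-ASO liver was above every liver of the other groups, and the means were 97.8 ± 11, 76.6 ± 34.5 and 164 ± 11.6 CPM (SD, n = 4 each). On the log2 scale (± SE) Atf5 rose by 1.16 ± 0.21 (adjusted p = 0.0062) against the control ASO, and by 0.97 ± 0.15 (adjusted p = 0.0013) without control ASO replicate 3. Against DPBS the change was 0.75 ± 0.20 (adjusted p = 0.044) with all livers and 0.76 ± 0.14 (adjusted p = 0.0023) without that one. The call against the control ASO held when any 1 of the 12 livers was left out, with adjusted p from 0.0013 to 0.022. The call against DPBS was lost in 10 of the 12 leave-outs, all but control ASO replicates 1 and 3 (adjusted p up to 0.12), and with replicate number as a block (adjusted p = 0.065). Parts of the gene overlap Nup62 and Il4i1 on the opposite strand, which reached 12.9 and 2.04 CPM.

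Atf4 (chr15:80255184-80257541, plus strand), the central transcription factor of the response, was at 80.4, 79.3, 79.0 and 87.7 CPM after DPBS, 75.8, 77, 186 and 72.3 CPM after the control ASO and 86.7, 93.8, 99.2 and 104 CPM after the Upf3b-ASO. With all livers the groups overlapped and the change against the control ASO was -0.07 ± 0.24 (adjusted p = 0.89). Without control ASO replicate 3, the Upf3b-ASO livers were all above the 3 control ASO livers (75.0 ± 2.46 CPM, SD, n = 3) and the change was 0.35 ± 0.07 (adjusted p = 0.0045). Against DPBS it was 0.23 ± 0.24 (adjusted p = 0.64) with all livers and 0.24 ± 0.06 (adjusted p = 0.015) without that liver, and Upf3b-ASO replicate 1, at 86.7 CPM, lay below DPBS replicate 4 at 87.7 CPM. Atf4 was called only in fits that left out control ASO replicate 3.

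Ddit3, which encodes the transcription factor CHOP, was at 5.26, 4.97, 8.47 and 6.73 CPM after DPBS, 4.65, 4.86, 11.8 and 6.99 CPM after the control ASO and 5.81, 8.63, 9.33 and 9.07 CPM after the Upf3b-ASO. The groups overlapped. The change against the control ASO was 0.28 ± 0.20 (adjusted p = 0.39) with all livers and 0.52 ± 0.15 (adjusted p = 0.031) without replicate 3, and against DPBS it was 0.39 ± 0.20 (adjusted p = 0.27) and 0.40 ± 0.14 (adjusted p = 0.051). Ddit3 and Mars overlap by 68 bases on opposite strands.

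Cebpb (chr2:167688915-167690418, plus strand), a C/EBP factor of liver and of acute-phase gene expression, was at 181, 190.4, 185 and 210.5 CPM after DPBS, 214, 174, 1023 and 240.2 CPM after the control ASO and 119, 131, 122 and 137 CPM after the Upf3b-ASO. All 4 Upf3b-ASO livers were below all 8 others. With all livers the change against the control ASO was -1.54 ± 0.45 (adjusted p = 0.054), and it was -0.73 ± 0.09 (adjusted p = 0.00036) without replicate 3, a smaller estimate with a smaller error. The call was also made without control ASO replicate 2 or without control ASO replicate 4, and in no other leave-out. Against DPBS it was -0.59 ± 0.43 (adjusted p = 0.47) with all livers and -0.58 ± 0.09 (adjusted p = 0.00071) without that liver. Tmem189, which overlaps Cebpb by 908 bases on the opposite strand, was 13.9 times the control ASO median in replicate 3 and lower in Upf3b-ASO livers without it (log2 fold change -0.53, adjusted p = 0.019). The part of the overlap in the Cebpb result was not tested. None of the 9 tested Kupffer cell and macrophage markers was called against the control ASO or DPBS, and their summed levels were 352 to 525 CPM after DPBS, 365 to 896 CPM after the control ASO and 457 to 629 CPM after the Upf3b-ASO.

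Cebpg, a C/EBP partner of ATF4 without an activation domain, was at 86.9, 84.1, 81.6 and 88.2 CPM after DPBS, 76.1, 80.5, 35.9 and 82.5 CPM after the control ASO and 64.4, 74.7, 64.3 and 65.2 CPM after the Upf3b-ASO. Upf3b-ASO livers were below all DPBS livers and below the control ASO livers other than replicate 3, which was the lowest of all. The change against the control ASO was -0.03 ± 0.20 (adjusted p = 0.95) with all livers and -0.24 ± 0.07 (adjusted p = 0.027) without that one. Against DPBS it was -0.35 ± 0.20 (adjusted p = 0.34) and -0.34 ± 0.06 (adjusted p = 0.0028). Atf3 and Nupr1, the other 2 regulators, were tested only with the lower filter and were not called in any comparison of treatments.

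Ppp1r15b (chr1:133131143-133139783, plus strand), the constitutive partner of protein phosphatase 1 that removes phosphate from eIF2, was at 119, 129.7, 131 and 121 CPM after DPBS, 119, 131, 115 and 125 CPM after the control ASO and 106, 98.7, 96.0 and 100.4 CPM after the Upf3b-ASO. Each Upf3b-ASO liver was below each of the other 8, and control ASO replicate 3 was within the range of the others. It was lower in Upf3b-ASO livers, at -0.29 ± 0.07 (adjusted p = 0.027) against the control ASO and -0.32 ± 0.07 (adjusted p = 0.017) against DPBS. The values were -0.31 ± 0.06 (adjusted p = 0.0056) and -0.31 ± 0.06 (adjusted p = 0.0028) without control ASO replicate 3. The call against the control ASO was lost without Upf3b-ASO replicate 2, 3 or 4 or control ASO replicate 2 or 4 (adjusted p up to 0.087) and with replicate number as a block (adjusted p = 0.057). The call against DPBS was lost without DPBS replicate 2 or 3 or Upf3b-ASO replicate 2, 3 or 4 (adjusted p up to 0.065).

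Of the other effectors, Sesn2, a leucine-sensing inhibitor of mTORC1, was at 16.7, 11.7, 11.6 and 12.7 CPM after DPBS, 10.4, 9.28, 29.8 and 10.6 CPM after the control ASO and 17.0, 14.4, 10.3 and 7.88 CPM after the Upf3b-ASO and was not called. Gadd45a gave -3.20 ± 1.38 (adjusted p = 0.16) against the control ASO with all livers and 0.03 ± 0.32 (adjusted p = 0.95) without replicate 3. The remaining effectors were testable only with the lower filter, under which all 38 genes gave 3 calls against the control ASO (6.48% of all genes) and 3 against DPBS (5.93%). Without control ASO replicate 3 that filter gave 11 calls against the control ASO (16.4% of all genes) and 9 against DPBS (20.4%). The single effector it added was Trib3, a pseudokinase that restrains ATF4, at 2.39, 2.21, 1.13 and 1.43 CPM after DPBS, 2.51, 2.94, 6.13 and 2.27 CPM after the control ASO and 2.87, 3.64, 4.26 and 5.69 CPM after the Upf3b-ASO. Upf3b-ASO livers were all above DPBS livers, with 19 to 86 counts in the 12 livers. The change against DPBS was 1.17 ± 0.38 (adjusted p = 0.1) with all livers and 1.22 ± 0.28 (adjusted p = 0.0099) without replicate 3, and against the control ASO it was 0.72 ± 0.30 (adjusted p = 0.13) without that liver.

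**Figure D3:**
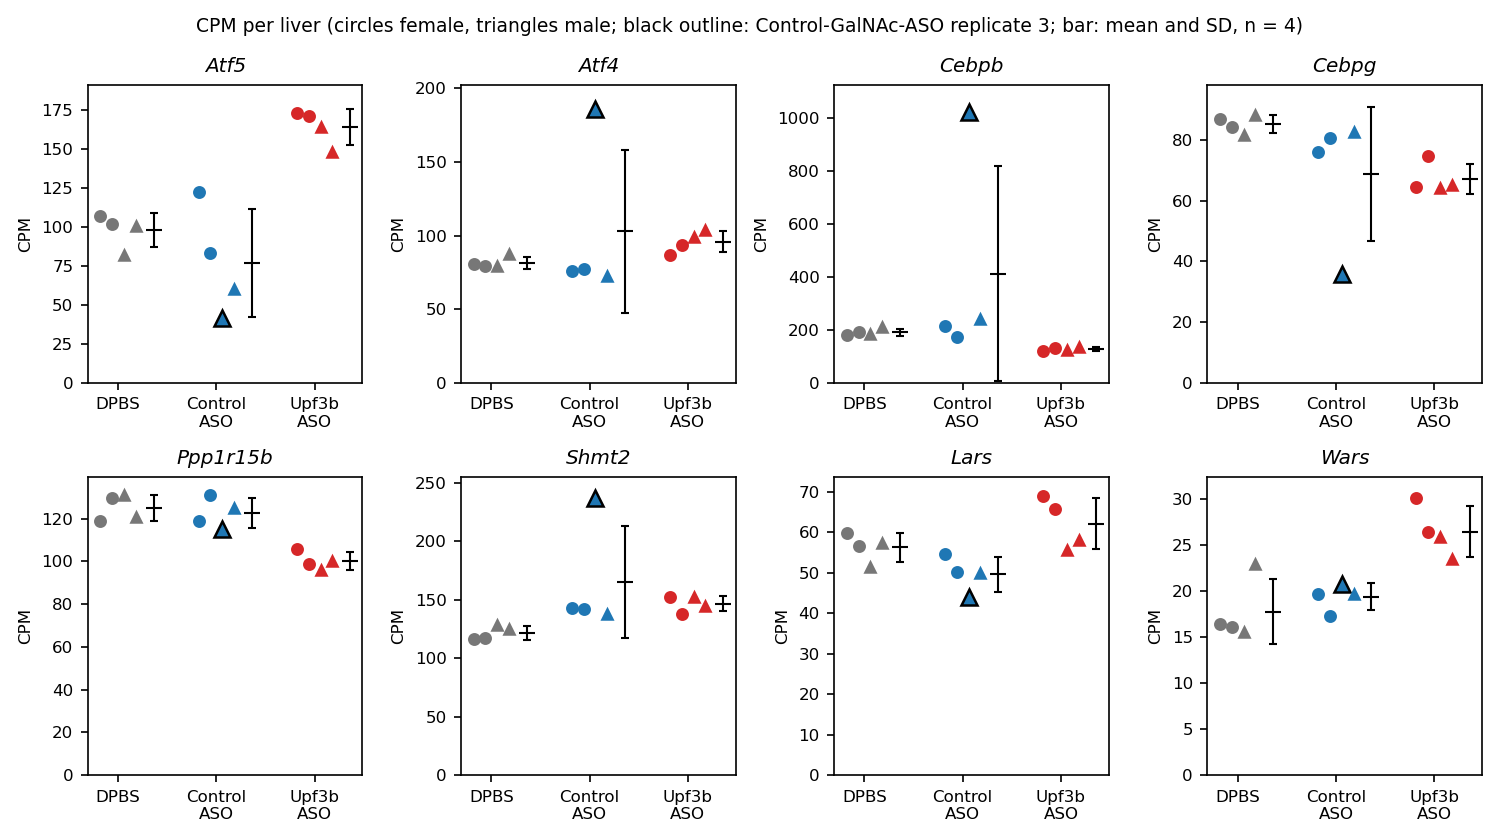
CPM in each liver for 8 genes by treatment group, with circles for females, triangles for males, a larger black-outlined triangle for control ASO replicate 3, and a bar for the mean and SD of the 4 livers; each axis starts at 0. The Upf3b-ASO points lie above all others for Atf5 and Wars and below all others for Cebpb and Ppp1r15b.

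Among the enzymes, Shmt2, the mitochondrial serine hydroxymethyltransferase, was at 116, 117, 128 and 125 CPM after DPBS, 143, 142, 237 and 138 CPM after the control ASO and 152, 138, 152 and 145 CPM after the Upf3b-ASO. All Upf3b-ASO livers and all control ASO livers were above all DPBS livers. The change against DPBS was 0.28 ± 0.15 (adjusted p = 0.29) with all livers and 0.28 ± 0.05 (adjusted p = 0.0034) without control ASO replicate 3. The change of the control ASO against DPBS was 0.43 ± 0.15 (adjusted p = 0.64) and 0.23 ± 0.06 (adjusted p = 0.21), and between both ASOs it was -0.15 ± 0.15 (adjusted p = 0.51) and 0.06 ± 0.06 (adjusted p = 0.53). Psph, the last enzyme of serine synthesis, was at 5.05, 4.87, 6.64 and 8.95 CPM after DPBS, 5.32, 4.75, 4.11 and 5.08 CPM after the control ASO and 6.6, 6.24, 6.93 and 5.69 CPM after the Upf3b-ASO. Its Upf3b-ASO livers were all above the control ASO livers but the change did not pass with all livers (0.40 ± 0.19, adjusted p = 0.19) or without replicate 3 (0.30 ± 0.18, adjusted p = 0.26). Mthfd2 and Pck2, of folate and phosphoenolpyruvate metabolism, were at 0.396 to 2.16 and 1.23 to 4.37 CPM and were not called between treatments, nor were Asns and Psat1. Phgdh, with 0 to 7 counts outside control ASO replicate 3, was not tested.

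Among the transporters, the large neutral amino acid carrier Slc7a5 (LAT1) was at 4.53, 4.36, 3.97 and 3.34 CPM after DPBS, 7.27, 5.54, 4.47 and 3.58 CPM after the control ASO and 2.58, 3.09, 2.86 and 2.65 CPM after the Upf3b-ASO. Each Upf3b-ASO liver was below each of the other 8. With the lower filter it was lower, at -0.84 ± 0.17 (adjusted p = 0.016) against the control ASO and -0.85 ± 0.18 (adjusted p = 0.0091) without replicate 3. Against DPBS the values were -0.51 ± 0.17 (adjusted p = 0.12) and -0.50 ± 0.17 (adjusted p = 0.059). Slc7a5 lies over its full annotated span of 26545 bases within Gm20388 on the opposite strand, which reached 56.6 CPM, and the strand setting was left to automatic detection of the library type, whose outcome is not given in the sources used here. Its heavy-chain partner Slc3a2 was at 26.8, 22.8, 18.9 and 19.7 CPM after DPBS, 22.3, 23.4, 50.4 and 19.6 CPM after the control ASO and 23.6, 25.3, 19.9 and 20.8 CPM after the Upf3b-ASO and was not called between treatments. The cystine carrier Slc7a11 spanned 3.37 to 7.53 CPM and gave -0.55 ± 0.21 (adjusted p = 0.14) against the control ASO and -0.49 ± 0.21 (adjusted p = 0.14) without replicate 3.

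The cytosolic tRNA synthetases, which join amino acids to their tRNAs, differed by small amounts between groups. Against the control ASO, 10 of the 12 had a positive log2 fold change (median 0.24, range -0.29 to 0.45), where the median over all genes tested was -0.02. Of the 12, 1 was called, Lars, beside 10.3% of all genes. Without control ASO replicate 3 the median was again 0.24 (range -0.15 to 0.49) and 4 of 12 were called, Gars, Lars, Tars and Wars, beside 24.5% of all genes, so that the count rose together with the share called over all genes. Against DPBS the median was -0.03 and 5 of 12 were positive, with Wars called higher. The control ASO over DPBS had a negative log2 fold change for 10 of the 12 (median -0.15, range -0.57 to 0.14). The median over all genes tested was 0.01 there, and none of those 12 differences was called by edgeR. This count and that of Upf3b-ASO over the control ASO share the control ASO livers. With all livers, 6 of the 12 (Cars, Iars, Lars, Mars, Nars and Tars) were under an unadjusted p of 0.05 in that comparison. The share of all genes under that p was not counted, so whether the synthetases stood out cannot be told from it.

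Wars (chr12:108860030-108894174, minus strand), the tryptophan tRNA synthetase and an interferon-responsive gene, was at 16.4, 16.1, 15.5 and 23 CPM after DPBS, 19.7, 17.3, 20.8 and 19.7 CPM after the control ASO and 30.1, 26.4, 25.9 and 23.5 CPM after the Upf3b-ASO. All 4 Upf3b-ASO livers were above all 8 others, with DPBS replicate 4 at 23 CPM just under the lowest of them at 23.5 CPM. Wars rose by 0.58 ± 0.14 (adjusted p = 0.024) against DPBS and 0.58 ± 0.13 (adjusted p = 0.006) without control ASO replicate 3. Against the control ASO it was 0.45 ± 0.14 (adjusted p = 0.059) and 0.49 ± 0.14 (adjusted p = 0.026). The call against DPBS was lost without DPBS replicate 1, 2 or 3 or Upf3b-ASO replicate 1, 2 or 3 (adjusted p up to 0.077). The call against the control ASO was made without DPBS replicate 4 or control ASO replicate 3 and in none of the other 10 leave-outs.

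Lars (chr18:42202298-42262194, minus strand), the leucine tRNA synthetase and a leucine sensor, was at 59.8, 56.6, 51.4 and 57.3 CPM after DPBS, 54.6, 50.1, 44.0 and 49.9 CPM after the control ASO and 69.0, 65.9, 55.6 and 58.2 CPM after the Upf3b-ASO. Upf3b-ASO livers were all above control ASO livers and overlapped DPBS. Lars rose by 0.32 ± 0.08 (adjusted p = 0.023) against the control ASO and 0.30 ± 0.07 (adjusted p = 0.0086) without replicate 3, and against DPBS it was 0.14 ± 0.08 (adjusted p = 0.3). The call was lost without Upf3b-ASO replicate 1, 2 or 4 or control ASO replicate 2 (adjusted p up to 0.071).

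Tars, for threonine, was at 142, 142, 114 and 156 CPM after DPBS, 129.7, 98.5, 111 and 93.1 CPM after the control ASO and 147, 142, 127 and 131 CPM after the Upf3b-ASO. Gars, for glycine, was at 46.9, 41.3, 39.2 and 50 CPM after DPBS, 41.0, 37.7, 53.7 and 41.6 CPM after the control ASO and 55.1, 47.9, 47.9 and 53.6 CPM after the Upf3b-ASO. Upf3b-ASO livers overlapped DPBS for both genes, and with replicate 3 set aside they lay above the control ASO for Gars and overlapped it for Tars. Against the control ASO without replicate 3, Tars rose by 0.39 ± 0.11 (adjusted p = 0.03) and Gars rose by 0.35 ± 0.09 (adjusted p = 0.02), whereas with all livers they gave 0.34 ± 0.12 (adjusted p = 0.089) and 0.24 ± 0.12 (adjusted p = 0.23).

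Aars was the synthetase that fell against DPBS without control ASO replicate 3. It was at 218, 216, 221 and 254 CPM after DPBS, 220.0, 188, 221 and 211 CPM after the control ASO and 182, 175, 207 and 191 CPM after the Upf3b-ASO, and Upf3b-ASO livers were all below DPBS livers but overlapped the control ASO. The change against DPBS was -0.27 ± 0.08 (adjusted p = 0.069) with all livers and -0.26 ± 0.07 (adjusted p = 0.016) without that one, and against the control ASO it was -0.15 ± 0.08 (adjusted p = 0.24) and -0.14 ± 0.07 (adjusted p = 0.19). Mars and Nars, for methionine and asparagine, were higher in every Upf3b-ASO liver than in any control ASO liver. With all livers neither passed (0.35 ± 0.11, adjusted p = 0.075 and 0.24 ± 0.09, adjusted p = 0.11). Without replicate 3 Mars was at the threshold and not called (0.27 ± 0.09, adjusted p = 0.05) and Nars did not pass (0.19 ± 0.07, adjusted p = 0.086). With the lower filter and without replicate 3, Mars was among the 11 genes called (0.29 ± 0.09, adjusted p = 0.048) and Nars was not (0.20 ± 0.07, adjusted p = 0.078). The Mars values were 70.5, 63.8, 64.5 and 81.7 CPM after DPBS, 54.0, 44.1, 42.5 and 56.2 CPM after the control ASO and 61.6, 58.0, 68.7 and 63.8 CPM after the Upf3b-ASO. Mars and Nars overlapped DPBS in Upf3b-ASO livers (-0.15 ± 0.11, adjusted p = 0.47 and -0.10 ± 0.09, adjusted p = 0.57). Cars, Iars, Sars, Yars and Eprs were not called against the control ASO or DPBS in either fit.

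**Figure D4:**
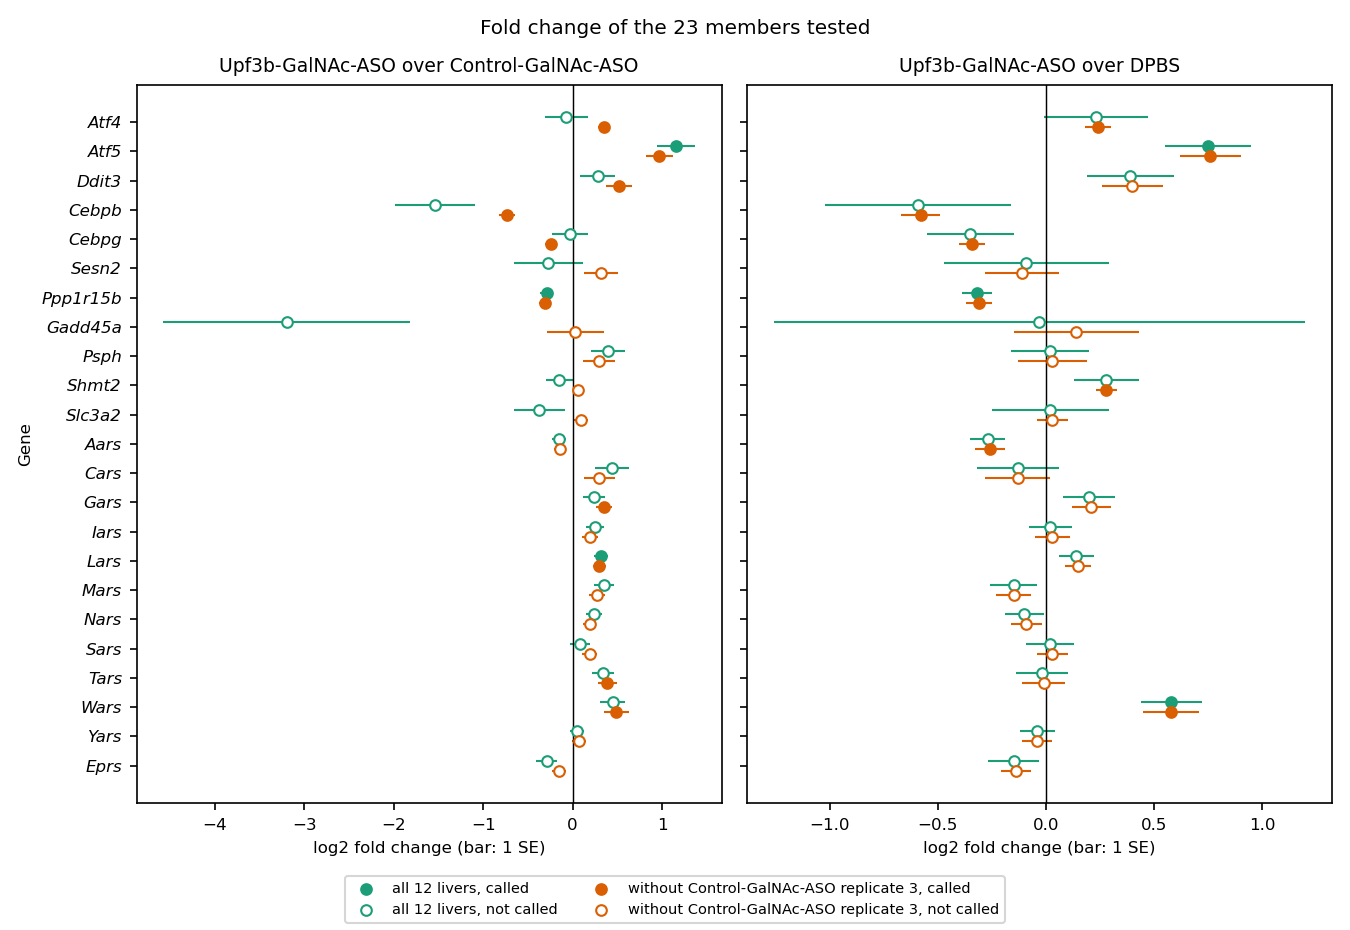
Log2 fold change with 1 SE of the 23 tested genes, Upf3b-ASO over control ASO (left) and over DPBS (right; the horizontal scales differ), with all 12 livers (green) and without control ASO replicate 3 (orange); filled points were called at an adjusted p under 0.05. Left, Gadd45a moves from -3.20 to 0.03 and Cebpb from -1.54 to -0.73 when that liver is left out, while the synthetases change little.

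The control ASO against DPBS called none of the 23 genes by edgeR with all livers (0.0113% of all genes, 1 gene) or without replicate 3 (0.0565%, 5 genes). Unadjusted p-values were under 0.05 for 8 of the 23 with all livers and for 7 without replicate 3. The share of all genes under that p was not counted, so whether the 23 stood out cannot be told from these counts. DESeq2 called 1 of 23, Mars, with a log2 fold change of -0.50 ± 0.12 (adjusted p = 0.013), and limma called 0. In edgeR Mars gave -0.51 ± 0.11 (adjusted p = 0.51) in this comparison.

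At the level of transcripts, 147 annotated transcripts of the 39 genes were in the files and 84 reached 10 counts in 4 livers, of which 51 were protein-coding, 25 retained an intron and 5 had the nonsense-mediated decay biotype. Against the control ASO 2 of the 84 were called with all livers (0.743% of 37660 transcripts) and 4 without replicate 3 (2.08%). None of the 4, and so none of either set, had the retained-intron or nonsense-mediated decay biotype. Atf5-201, which held 96.0% ± 2.52 of Atf5 TPM in DPBS livers, rose by 1.2 ± 0.22 (adjusted p = 0.044). Mars-203, a coding transcript of 621 bases, was at 15.1, 6.95, 7.96 and 15.5 TPM after DPBS, 2.74, 3.06, 1.89 and 1.66 TPM after the control ASO and 12.4, 9.51, 10.4 and 10.0 TPM after the Upf3b-ASO. Its 4 control ASO livers were below all other 8. Mars-203 rose by 2.15 ± 0.32 (adjusted p = 0.018) against the control ASO (2.15 ± 0.37, adjusted p = 0.023 without replicate 3) and gave -0.05 ± 0.30 (adjusted p = 1) against DPBS and -2.20 ± 0.32 (adjusted p = 0.36) for the control ASO over DPBS. Its share of Mars TPM was 23.8% ± 6.45 after DPBS, 7.77% ± 2.47 after the control ASO and 22.7% ± 2.46 after the Upf3b-ASO (SD, n = 4). Mars-201, with 47.8% of Mars TPM in DPBS livers, gave 0.27 ± 0.18 (adjusted p = 0.61) against the control ASO. With replicate number as a block neither Mars-203 (adjusted p = 0.059) nor Atf5-201 (adjusted p = 0.1) was called, and estimates for single transcripts depend on how shared reads were divided. Without replicate 3 the calls were Atf5-201, Mars-203, Lars-201 and Cebpb-201. Against DPBS 0 of the 84 were called by edgeR with all livers (0.751% of all transcripts), where 9 were under an unadjusted p of 0.05. The share of all transcripts under that p was not counted. With control ASO replicate 3 left out the count against DPBS was 5 (2.88%), Shmt2-201, Atf5-201, Ppp1r15b-201, Cebpb-201 and Cebpg-202, none of them of the retained-intron or nonsense-mediated decay biotype.

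Asns was at 0.26, 0.652, 2.73 and 4.29 CPM after DPBS, 1.04, 0.566, 6.2 and 2.03 CPM after the control ASO and 0.574, 0.489, 2.66 and 3.51 CPM after the Upf3b-ASO. Females of the 3 groups were at 0.26 to 1.04 CPM and males at 2.03 to 6.2 CPM, without overlap, and the highest male was control ASO replicate 3. With the lower filter males were higher by 2.61 ± 0.33 (adjusted p = 0.00051) on the log2 scale, and by 2.38 ± 0.31 (adjusted p = 0.00028) without that liver. Males against females called 1 of 23 genes, Ddit3, with the TPM filter (10.0% of all genes) and 2 of 38 with the lower filter (7.14%). Ddit3 was at 4.65 to 8.63 CPM in females and 6.73 to 11.8 CPM in males (0.63 ± 0.17, adjusted p = 0.036). Without control ASO replicate 3 Slc3a2 was called lower in males (-0.29 ± 0.06, adjusted p = 0.0073), at 18.9 to 20.8 CPM against 22.3 to 26.8 CPM in females. The counts were then 2 of 23 (21.9% of all genes) and 4 of 38 (16.2%), and the fourth gene was Pck2 (-0.54 ± 0.15, adjusted p = 0.028).

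Other genes of the pathway were read from lists of their own. Over all genes tested, 10.3% were called against the control ASO with all livers and 24.5% without control ASO replicate 3. Against DPBS the shares were 8.93% and 28.7%. Because these shares rose without that liver, a higher count in a list without it is not by itself a result for that list. Whether any list stood out from all genes was not tested. Of 15 tested genes for eIF2 kinases, eIF2 and eIF2B, none was called against the control ASO with all livers, and Eif2s1, the alpha subunit that is phosphorylated, was higher without replicate 3 (0.33 ± 0.10, adjusted p = 0.035). Of 11 tested other ATF4 targets, 1 was called lower and none higher. It was the glycine transporter Slc6a9, at 34.4, 31.2, 47.6 and 47.6 CPM after DPBS, 33.9, 24.4, 30.0 and 38.5 CPM after the control ASO and 12.9, 14.4, 25.7 and 28.1 CPM after the Upf3b-ASO (-0.72 ± 0.16, adjusted p = 0.02, and -0.83 ± 0.14, adjusted p = 0.0019 without replicate 3). Without replicate 3, Slc38a2, Herpud1 and Vegfa were also lower, and again none was higher. The 11 other cytosolic synthetase genes had 0 calls with all livers and 1, Vars, without replicate 3. Of 13 mitochondrial synthetases 2 were higher, Ears2 (0.51 ± 0.12, adjusted p = 0.026) and Yars2 (0.35 ± 0.10, adjusted p = 0.046), and 1 was lower, Fars2 (-0.87 ± 0.13, adjusted p = 0.0024). Without replicate 3 the mitochondrial counts were 4 higher and 1 lower, with Ears2 at 0.43 ± 0.10 (adjusted p = 0.013), Yars2 at 0.32 ± 0.10 (adjusted p = 0.032) and Fars2 at -0.98 ± 0.09 (adjusted p = 5.1e-05). Of 13 genes of the ATF6 and XBP1 branch of endoplasmic reticulum stress, 3 chaperone and cofactor genes were higher against the control ASO, Sdf2l1 (1.16 ± 0.30, adjusted p = 0.035), Hyou1 (0.73 ± 0.16, adjusted p = 0.015) and Pdia4 (0.54 ± 0.11, adjusted p = 0.013), and Atf6 was lower (-0.65 ± 0.17, adjusted p = 0.037). Without replicate 3 the counts in this branch were 6 higher and 1 lower, with Sdf2l1 at 1.49 ± 0.23 (adjusted p = 0.0011), Hyou1 at 0.74 ± 0.16 (adjusted p = 0.0073), Pdia4 at 0.49 ± 0.10 (adjusted p = 0.0065) and Atf6 at -0.41 ± 0.09 (adjusted p = 0.0078). Against DPBS none of these 4 was called with all livers, and Atf6 was lower without replicate 3 (-0.47 ± 0.08, adjusted p = 0.0022). Against DPBS with all livers the other calls in these lists were Dnajc3, a kinase inhibitor among the 15 eIF2 genes, Slc6a9 and Fars2, all 3 lower. Without replicate 3, the eIF2 kinase gene Eif2ak2 (0.31 ± 0.09, adjusted p = 0.033) and Eif2s1 (0.30 ± 0.09, adjusted p = 0.034) were higher against DPBS and Dnajc3 was lower. Other ATF4 targets then had 0 higher and 4 lower, and other cytosolic synthetases 2 higher and 0 lower. Mitochondrial synthetases had 6 higher and 1 lower, and the ATF6 and XBP1 branch 0 higher and 2 lower. None of 9 immediate-early genes and none of 19 acute-phase genes was called against the control ASO with all livers, with median log2 fold changes of -2.08 and -1.29 that became -0.16 and -0.01 without replicate 3. Without that liver 2 acute-phase genes, Orm3 and Itih4, were lower than in the control ASO, and against DPBS 5 were higher and the same 2 were lower.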

How the data were processed

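Liver RNA was made into TruSeq libraries, and the authors quantified transcripts with Salmon 0.7.2 (per the labels) on mouse cDNA of build GRCm38.p4, with the library type, strand included, detected by the program. Each deposited file holds 1 liver, with estimated counts (fractional where reads were shared) and TPM, which the authors scaled per library and which keep no depth. Transcripts were joined to genes by Ensembl identifier with GENCODE M21 (98.1% of 92468 transcripts, 31114 genes), and the sum of estimated counts of each gene was rounded to a whole number. The main test was the quasi-likelihood test of edgeR 4.0.16 (R 4.3.3) with TMM, all 12 livers, sex as a covariate, at least 5 TPM in at least 4 livers, and Benjamini-Hochberg adjustment over all genes tested. CPM are counts over TMM-scaled library size. Standard errors are the log2 fold change over the root of F. DESeq2 1.42.0 and limma 3.58.1 (log2 of TPM + 1) were alternatives, and transcripts needed 10 counts in 4 livers. Fits were tested on simulated data. The 39 genes and all lists were chosen with earlier results of these data known. All members are accounted for by role, with values in every liver for those called in a treated comparison, those past 4-fold in control ASO replicate 3, and Atf4. Of other genes, Upf3b and at most 4 called genes of each pathway list with the largest change are named. The marker genes, overlapping genes, Dnajc3 and Eif2ak2 were named after their values were seen. Upf1-ASO livers were not analysed here.

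Depth was 13277892 to 20387682 counts per library, and the labels name separate mice but no batch. Replicates within a group differed by at least 16.5 times sampling noise (chi-square per degree of freedom), so none was counted as a duplicate. Same-numbered livers of different groups deviated together (correlations 0.20 to 0.61, mean 0.49), as did other livers of the same sex (mean 0.48). After sex was removed the same-numbered mean was -0.11. Pairing beyond sex was thus not seen, and blocked values are given where a call changed.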

Additional observations from a re-analysis of the deposited data

Results flagged for a closer look

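In a group of 4, a liver was singled out when its gap to the nearest other liver over the group's range exceeded the 95% critical value of Dixon's test. Of 117 groups (39 genes in 3 groups), 18 met this, where chance gives about 1 in 20 (5.8), and 13 of the 18 concerned control ASO replicate 3. The share of groups meeting this over all genes was not counted, so whether the 39 genes stood out cannot be told. Over all 14058 genes, control ASO replicate 3 lay above all other 11 livers in 30.5% and below them in 28.9%. That liver was the highest of its group for Atf3 (348 CPM), Cebpb (1023 CPM), Atf4 (186 CPM), Gadd45a (345 CPM), Gadd45b (211 CPM), Ddit4 (159 CPM), Chac1 (87.1 CPM), Ppp1r15a (69.5 CPM), Sesn2 (29.8 CPM), Shmt2 (237 CPM), Slc3a2 (50.4 CPM) and Phgdh (0.78 CPM). It was the lowest for Cebpg (35.9 CPM). DPBS replicate 4 was the highest of its group for Atf4 (87.7 CPM), Aars (254 CPM) and Wars (23 CPM). DPBS replicate 3 was the highest for Ppp1r15a (9.66 CPM), and Upf3b-ASO replicate 2 was the highest for Cebpg (74.7 CPM).

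In 3 of 76 comparisons within sex, both treated females lay on one side of both control females and both treated males on the opposite side of both control males. The difference between the sexes was not tested. The share of all genes with this pattern was not counted, so whether 3 of 76 stood out cannot be told. For Chac1, Upf3b-ASO over DPBS was -1.15 in females and 0.87 in males (log2 of mean CPM), a difference of -2.02. For Psat1 the values were 0.37 and -0.62, a difference of 0.99. For Sesn2 over the control ASO they were 0.68 and -1.15, a difference of 1.83, where the male control ASO pair includes replicate 3.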

How the results depend on the processing

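Members called in Upf3b-ASO against the control ASO numbered 3 in the reported fit, 8 with DESeq2, 1 with only the groups compared and 2 with the replicate block. Genes called were 910, against 1584 with DESeq2, 347 with limma, 519 without the sex covariate, 363 with only the groups compared and 699 with the block. Against DPBS, members called were 3, against 0 with limma, 8 with only the groups compared and 2 with the replicate block, and genes called were 790, against 1274 with DESeq2, 325 with limma, 477 without the sex covariate, 2478 with only the groups compared and 606 with the replicate block. For the control ASO against DPBS, DESeq2 called 1 member and 45 genes, and limma, the groups compared and the replicate block called 0 genes where the reported fit called 1. Between sexes, members called were 1, against 2 with DESeq2, 2 with the count filter, 2 with no filter and 6 with limma, and genes called were 887, against 1359 with DESeq2 and 3062 with limma. Member transcripts called were 2, against 1 without the sex covariate and 0 with the replicate block, and all transcripts called were 280, against 546 at 50 counts, 143 without the sex covariate and 106 with the replicate block. The count filter without control ASO replicate 3, chosen after the data were seen, called 11, 9, 0 and 4 members and 2309, 2871, 3 and 2273 genes in the order Upf3b-ASO against control ASO, Upf3b-ASO against DPBS, control ASO against DPBS and males against females.

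Leaving out 1 liver at a time gave ranges of 1 to 10 and 0 to 8 members and 434 to 2168 and 400 to 2540 genes for Upf3b-ASO against the control ASO and DPBS, 0 members in each and 0 to 5 genes for the control ASO against DPBS, 0 to 2 members and 581 to 1939 genes between sexes, and 0 to 4 member transcripts and 83 to 784 transcripts. Each highest count above 0 came without control ASO replicate 3. Directions against the control ASO turned for Atf4 with limma (0.10), and with the count filter without control ASO replicate 3 (0.37), from -0.07, ranging from -0.23 to 0.35 over leave-outs. They turned for Cebpg with limma (0.19), no filter (0.00) and the replicate block (0.01), from -0.03, ranging from -0.24 to 0.15 over leave-outs. Shmt2 went from -0.15 to 0.08 with the count filter without control ASO replicate 3, ranging from -0.26 to 0.06, and Tars against DPBS ranged from -0.09 to 0.08. Atf5 against the control ASO was called in all 21 alternatives. Of the other calls against the control ASO, Lars was called in 13 of 21 (adjusted p up to 0.13) and Ppp1r15b in 11 (up to 0.25). Against DPBS, Ppp1r15b was called in 14 (up to 0.19), Wars in 14 (up to 0.16) and Atf5 in 8 (up to 0.16). The cause of these shifts was not tested. Counting depth limits genes under about 10 counts, among them Phgdh and Psat1.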
